A study of Mus musculus with 2 samples.

Results

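The genes described here are 57 genes of mouse chromosome 8 that lie between Lsm6 and Got2, from 79456724 to 96615190 in the GRCm39 assembly, a stretch of 17.2 Mb. They are 57 of the 21829 gene symbols measured, and they were selected on the comparison reported below, namely for their position in a stretch in which most genes had a lower level in one of the libraries. Their shared lower level is therefore a description and was given no test. Expression was measured by RNA sequencing in C2C12 cells, an immortalised mouse myoblast line, with 1 library from unedited cells (WT) and 1 from cells in which CRISPR–Cas9 left an indel in exon 2 of Gne and a premature stop codon (KO). Gne encodes the enzyme that starts sialic acid synthesis. Both lines were grown in the same serum-containing medium without further treatment, and the KO line was grown from a single edited cell. With a single library for each line, the differences below have no replicate check, and features of that clone and effects of the Gne edit cannot be told apart. Neither can fewer cells of a type be told apart from less RNA per cell in such bulk samples.

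Genes that lie beside each other on a chromosome usually have unrelated functions and their own promoters, and a gene set defined by position is not a pathway. The genes of this stretch nevertheless include subunits of essential machines, among them RNA polymerase II, the Lsm ring of RNA decay and splicing, the CCR4-NOT deadenylase, the origin recognition complex, the nuclear pore and the retromer. Members with known parts in muscle precursors include Smad1, of the bone morphogenetic protein pathway, and the transcription factor Nfix.

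The values were read as FPKM, a level scaled to transcript length and to sequencing depth, which can be set side by side between genes. The WT total was 568410 and that of the library labelled KO, called the KO library from here on, was 574144, and the number of reads is unknown. Gne itself had 6.67 FPKM in the WT and 7.34 FPKM in the KO library, a level that does not check an indel. Among markers of cell type, the 7 myoblast genes summed to 199 FPKM in the WT and 25.8 FPKM in the KO library. Of these, Myod1 had 59.97 FPKM in the WT library and was listed at 0 in the KO library, and Pax7 was listed at 0 in both. Myf5, the other determination gene of the list, had 9.14 FPKM in the WT and 20.3 FPKM in the KO library. The KO library, labelled a myoblast line, thus lacked 1 of these determination genes and held the other. Among the other myoblast markers, Des had 97.6 FPKM in the WT and 3.84 FPKM in the KO library. Cdh15 had 16.6 and 0.701 FPKM, Chrna1 15.3 and 0.917 FPKM, and Myog 0.068 and 0.027 FPKM. The 5 fibroblast or mesenchymal markers summed to 319.8 FPKM in the WT and 969 FPKM in the KO library, a difference carried by the collagen genes Col1a1, with 9.66 and 273 FPKM, and Col1a2, with 237 and 621 FPKM. Twist2 had 61.9 and 62.3 FPKM, Pdgfra 10.8 and 12.3 FPKM, and Thy1 was listed at 0 in both. The 3 macrophage markers summed to 2.85 and 1.06 FPKM, with Ptprc and Adgre1 listed at 0 in both libraries, and the 2 endothelial and 3 epithelial markers summed to 0.037 FPKM or less in each. Several myoblast markers and both collagen genes thus differed between the same 2 libraries as the members, and their part in the lower level of the members was not tested.

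Of the 57 members, 51 had a mean of at least 1 FPKM over the libraries and were used for fold changes, and 6 were nearly silent in both. In the KO library 51 of these 51 members were lower, where 49.3% of all 10542 genes past the same limit were lower. More than 2-fold lower, meaning a log2((KO + 1)/(WT + 1)) below -1, were 34 of the 51 members and 3.43% of all genes. Because this contrast had chosen the members, nothing is read from the distance between these shares. The scale with 1 FPKM added understates the change of genes with low values. The median member kept 42.3% of its WT level in the KO library, with quartiles of 34.8% and 50.99% and a range from 21.1% to 89.8%, and the median log2 fold change was -1.23 against 0.0061 over all genes. Below 30% of the WT level were 8 members, between 30 and 50% were 29, between 50 and 60% were 8, and 6 kept 60% or more. Not one of the 51 had a log2 fold change below -2 on this scale, although Hook2 was at -2.20 with a pseudocount of 0.1. The members just outside the 2-fold limit were Gipc1 at -0.98 and Brd7 at -0.96, and those just inside were Bbs2 at -1.05 and N4bp1 at -1.05.

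**Figure D1:**
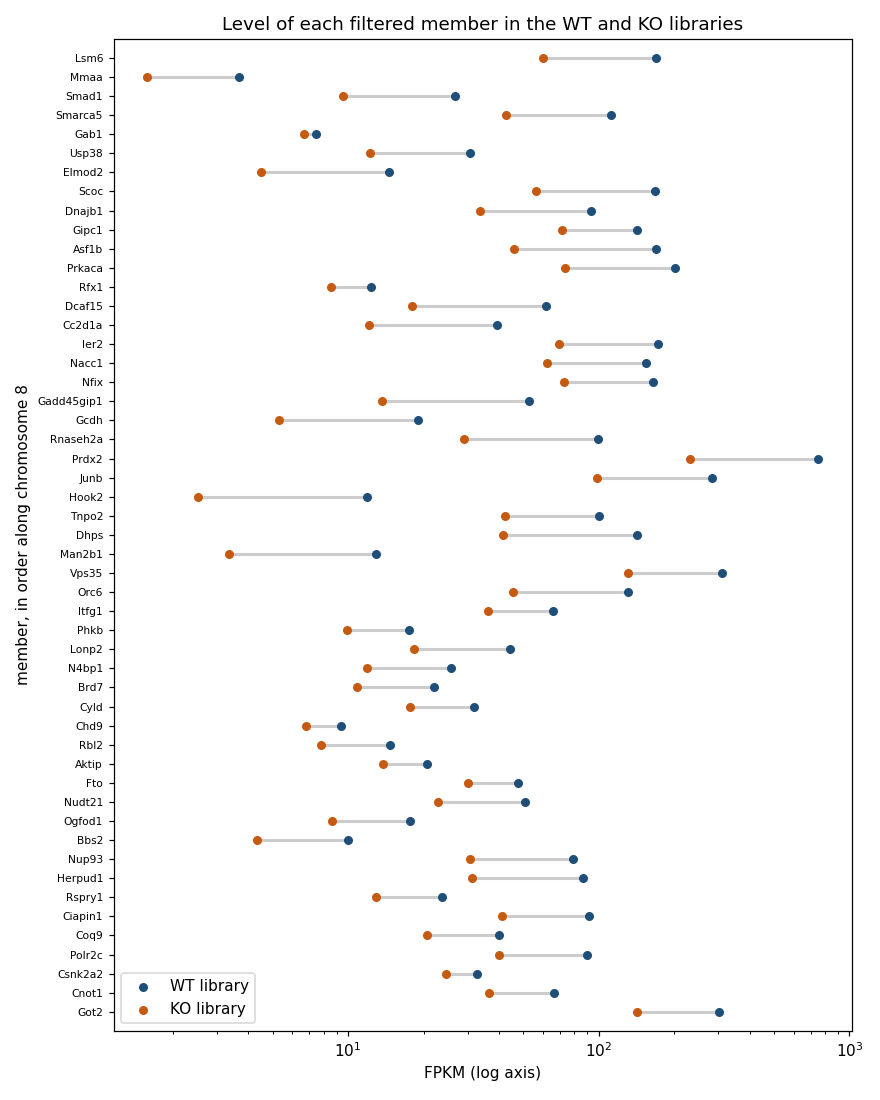
Level of each of the 51 members past the limit in the WT library (blue) and the KO library (orange), in FPKM on a log axis, with the members in their order along chromosome 8 and a grey line joining both values of a gene. The KO point lies to the left of the WT point for each of them, with the shortest line at Gab1 (7.42 and 6.66 FPKM) and the longest at Hook2 (11.9 and 2.51 FPKM).

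The members that kept most of their WT level were Gab1, Csnk2a2, Chd9 and Rfx1, the 4 with a log2 fold change above -0.5, although Rfx1 at -0.49 is next to this limit and falls to -0.53 with a pseudocount of 0.1. Gab1, a docking protein that receptor tyrosine kinases use to recruit their effectors, had 7.42 FPKM in the WT and 6.66 FPKM in the KO library, which is 89.8% of the WT level and a log2 fold change of -0.14. It lies at chr8:81491061-81607279 on the minus strand, and the members on either side of it did not share this value. Smarca5, the ATPase of the ISWI chromatin remodellers, had 112 FPKM in the WT and 42.7 FPKM in the KO library, or 38.0%. Usp38, a deubiquitinase, had 30.8 FPKM in the WT and 12.3 FPKM in the KO library, or 39.9%. The steps from Smarca5 to Gab1 and from Gab1 to Usp38, 1.24 and 1.12 on the log2 scale, were among the 3 widest of the 50 steps between neighbouring members, whose median was 0.29. Csnk2a2, a catalytic subunit of casein kinase 2, had 32.7 FPKM in the WT and 24.6 FPKM in the KO library, which is 75.2%. Its neighbour Polr2c, a subunit of RNA polymerase II, kept 44.2%. Chd9, a chromodomain remodeller, had 9.37 FPKM in the WT and 6.80 FPKM in the KO library, or 72.6%.

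Rfx1, a winged-helix transcription factor that binds the X-box, had 12.4 FPKM in the WT and 8.54 FPKM in the KO library, or 68.9%. It stands between Prkaca, which kept 36.4%, and Dcaf15, which kept 29.2%, and the step from Rfx1 to Dcaf15 was 1.23 on the log2 scale. Aktip and Fto came next, with 66.3% and 62.9%. Low values are common among these genes, since the 4 had a median WT level of 10.9 FPKM, against 52.7 FPKM for all 51. Each of the 4 kept more than the members on either side of it, which for Chd9 were Cyld at 55.8% and Rbl2 at 52.7%.

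The stretches of DNA before the start of these genes are shown for Gab1 with its neighbours Smarca5 and Usp38, for the other members that kept most of their level, for Dcaf15 beside Rfx1, and for Hook2, which kept the least. Each run is the 250 bases before the first listed start in the RefSeq promoter table, in the GRCm38.p6 build, whose coordinates differ from the GRCm39 positions given elsewhere. Capitals mark matches on either strand to 5 motifs, which are CCAAT, the GC box (GGGCGG), the TATA box (TATAAA), the E-box (CACGTG) and the cAMP response element (TGACGTCA), none of which contains another. The windows were Smarca5 at chr8:80739460-80739709 (minus strand), Gab1 at chr8:80880520-80880769 (minus), Usp38 at chr8:81014907-81015156 (minus), Rfx1 at chr8:84066586-84066835 (plus), Dcaf15 at chr8:84104798-84105047 (minus), Hook2 at chr8:84990373-84990622 (plus), Chd9 at chr8:90828585-90828834 (plus) and Csnk2a2 at chr8:95488821-95489070 (minus).
Smarca5: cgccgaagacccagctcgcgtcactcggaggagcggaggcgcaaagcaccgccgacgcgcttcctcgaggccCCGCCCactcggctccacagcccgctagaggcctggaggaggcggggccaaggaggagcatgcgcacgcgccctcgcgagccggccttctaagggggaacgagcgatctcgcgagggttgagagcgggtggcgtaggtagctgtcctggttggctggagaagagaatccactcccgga
Gab1: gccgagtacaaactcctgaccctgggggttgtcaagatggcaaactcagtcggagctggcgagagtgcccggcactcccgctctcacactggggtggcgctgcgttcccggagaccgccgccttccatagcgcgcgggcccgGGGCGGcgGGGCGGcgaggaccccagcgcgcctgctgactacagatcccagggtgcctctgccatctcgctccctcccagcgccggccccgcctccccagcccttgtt
Usp38: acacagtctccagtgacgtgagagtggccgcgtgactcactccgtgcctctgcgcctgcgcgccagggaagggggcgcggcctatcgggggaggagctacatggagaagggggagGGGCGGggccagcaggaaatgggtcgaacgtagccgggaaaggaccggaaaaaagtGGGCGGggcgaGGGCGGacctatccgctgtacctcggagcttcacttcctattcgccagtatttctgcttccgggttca
Rfx1: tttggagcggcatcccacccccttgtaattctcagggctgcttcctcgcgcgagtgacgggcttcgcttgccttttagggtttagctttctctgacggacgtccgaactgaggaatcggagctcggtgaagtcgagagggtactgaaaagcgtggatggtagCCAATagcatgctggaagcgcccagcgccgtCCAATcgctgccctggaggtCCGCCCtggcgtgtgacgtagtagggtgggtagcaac
Dcaf15: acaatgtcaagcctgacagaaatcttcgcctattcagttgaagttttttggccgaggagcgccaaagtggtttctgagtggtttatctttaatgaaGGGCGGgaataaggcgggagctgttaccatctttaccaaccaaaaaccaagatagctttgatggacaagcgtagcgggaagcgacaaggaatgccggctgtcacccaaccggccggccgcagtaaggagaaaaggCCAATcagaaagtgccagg
Hook2: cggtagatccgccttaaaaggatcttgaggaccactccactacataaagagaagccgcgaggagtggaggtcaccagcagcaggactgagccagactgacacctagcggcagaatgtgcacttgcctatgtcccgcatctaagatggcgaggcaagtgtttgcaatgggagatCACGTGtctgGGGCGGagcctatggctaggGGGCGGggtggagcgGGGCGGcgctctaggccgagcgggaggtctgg
Chd9: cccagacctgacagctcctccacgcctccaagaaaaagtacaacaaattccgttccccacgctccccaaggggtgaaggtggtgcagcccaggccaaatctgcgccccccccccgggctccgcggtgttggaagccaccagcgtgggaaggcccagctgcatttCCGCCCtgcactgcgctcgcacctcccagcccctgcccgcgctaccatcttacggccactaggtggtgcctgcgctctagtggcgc
Csnk2a2: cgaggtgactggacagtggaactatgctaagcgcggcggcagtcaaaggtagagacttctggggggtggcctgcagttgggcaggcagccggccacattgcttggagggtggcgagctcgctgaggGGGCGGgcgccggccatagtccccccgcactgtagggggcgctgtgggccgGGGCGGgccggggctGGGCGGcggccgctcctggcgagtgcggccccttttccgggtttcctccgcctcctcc
A GC box stood in each of these 8 windows, in the members that kept most of their level and in those that kept little. CCAAT stood in the windows of Rfx1 and Dcaf15, which lie beside each other and kept 68.9% and 29.2%. An E-box stood in the window of Hook2.

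Over the members as a whole, RefSeq windows were matched for 50 of the 57, and 45 of the 51 past the limit had 59 windows. Of these windows 57.6% held a GC box, 44.1% CCAAT, 10.2% an E-box and 5.08% a TATA box, and 0 of 59 held the cAMP response element. Over the 10719 windows of all genes past the limit the shares were 59.8%, 35.7%, 8.54%, 6.04% and 2.696%, and over all 32851 windows in the table they were 32.7%, 33.8%, 6.02%, 12.4% and 1.55%. The members' windows had a median of 19 CpG dinucleotides, against 16 for all genes past the limit. Such matches describe letters in a window and were not tested as sites.

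The 3 members of DNA replication and histone supply had the lowest remaining levels of the 6 functional groups into which the members were sorted, with a median of 29.0%. Asf1b, a chaperone that brings histones to newly made DNA, had 169 FPKM in the WT and 46.1 FPKM in the KO library, or 27.2%. Rnaseh2a, the catalytic subunit of the nuclease that removes ribonucleotides from DNA, had 99.7 and 28.9 FPKM, or 29.0%. Orc6, a subunit of the complex that marks replication origins, had 130.3 and 45.4 FPKM, or 34.9%. The 3 log2 fold changes ran from -1.86 to -1.50. All 3 genes lie in the proximal part of the stretch, where other members were low as well.

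Of the 7 members in RNA synthesis, processing and nuclear transport, 5 were more than 2-fold lower in the KO library, with a median of 44.2% of the WT level. Lsm6, part of the Lsm ring that binds RNA in decay and splicing, had 169.7 FPKM in the WT and 60.1 FPKM in the KO library, or 35.4%. Nup93, a scaffold of the inner ring of the nuclear pore, had 79.2 and 30.5 FPKM, or 38.5%. Tnpo2, an import receptor, had 99.8 and 42.3 FPKM, or 42.4%. These 3 were the lowest of the group. Polr2c had 90.1 FPKM in the WT and 39.8 FPKM in the KO library, and 57.7% of its annotated exonic bases are also exonic in genes of the opposite strand, chiefly Dok4. Nudt21, the RNA-binding subunit of cleavage factor I, which sets the sites of polyadenylation, had 50.9 and 22.7 FPKM, or 44.7%. The other 2 kept more. Cnot1, the scaffold of the CCR4-NOT deadenylase, had 66.3 and 36.4 FPKM, or 54.9%, and Fto, an RNA demethylase, had 47.7 and 30.01 FPKM.

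Chromatin and DNA-binding regulators were 11 members, of which 10 passed the limit and 6 were more than 2-fold lower, with a median of 42.5%. Junb, a subunit of the AP-1 transcription factor, had 282 FPKM in the WT and 98.2 FPKM in the KO library, or 34.8%. Smad1, which carries signals of bone morphogenetic proteins to the nucleus, had 26.7 and 9.54 FPKM, or 35.8%. Smarca5, given above, lay close to these. Ier2, an immediate early gene, had 173 and 69.5 FPKM, or 40.2%. Nacc1, a BTB-domain repressor, had 154 and 62.4 FPKM, or 40.6%. Nfix, a nuclear factor I protein known for its part in fetal muscle development, had 164 and 72.9 FPKM, or 44.5%. The 4 remaining regulators were less than 2-fold lower on the scale with 1 FPKM added. Brd7, a bromodomain subunit of the PBAF remodeller, had 22.03 and 10.8 FPKM, or 49.1%. Rbl2, a pocket protein of the retinoblastoma family, had 14.7 and 7.77 FPKM, or 52.7%. Chd9 and Rfx1 completed the group with the values given above, so that the chromatin regulators held both low and well-kept levels.

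Among the 12 genes of membrane traffic, chaperones and the lysosome, 10 passed the limit and 8 of these were more than 2-fold lower, with a median of 36.0%. Hook2, which links cargo and centrosome to microtubules, kept the smallest share of all 51 members, with 11.9 FPKM in the WT and 2.51 FPKM in the KO library, or 21.1%. Man2b1, a lysosomal mannosidase that trims N-glycans, had 12.9 and 3.33 FPKM, or 25.8%. Elmod2, a GTPase-activating protein for small Arl GTPases, had 14.6 and 4.50 FPKM, or 30.8%. Levels in the KO library were thus below 5 FPKM for these 3, and 1 FPKM of added pseudocount weighs more on them than on the others. Scoc, a coiled-coil protein of the Golgi, had 168 and 56.2 FPKM, or 33.4%. Dnajb1, a heat shock co-chaperone, had 93.2 and 33.6 FPKM, or 36.0%. Herpud1, an endoplasmic reticulum protein of the unfolded protein response, had 86.5 and 31.2 FPKM, or 36.0%. The last 2 kept the same share, although Dnajb1 lies in the proximal part of the stretch and Herpud1 in the distal part. Vps35, the core subunit of the retromer that returns receptors from endosomes, had 309.6 and 131 FPKM, or 42.3%. Bbs2, a subunit of the BBSome of cilia, had 10.0 and 4.34 FPKM, or 43.3%. Itfg1, a membrane protein with FG-GAP repeats, had 65.8 and 36.2 FPKM, or 55.1%. Aktip, which binds the Hook proteins, had 20.7 and 13.7 FPKM, and stood far above its partner Hook2 in remaining level.

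The mitochondrial, metabolic and redox genes were 12, of which 11 passed the limit and 7 were more than 2-fold lower, with a median of 43.2%. Prdx2, a cytosolic peroxiredoxin, had the highest level of the members in both libraries, with 751 FPKM in the WT and 230.2 FPKM in the KO library, or 30.7%. Gadd45gip1, a protein of the mitochondrial ribosome, had 52.7 and 13.6 FPKM, or 25.9%. Gcdh, the glutaryl-CoA dehydrogenase of lysine breakdown, had 18.9 and 5.31 FPKM, or 28.0%. Dhps, which makes the hypusine of the translation factor Eif5a, had 142 and 41.6 FPKM, or 29.4%. These 4 had the lowest shares of the group. Lonp2, a peroxisomal protease, had 44.1 and 18.3 FPKM, or 41.5%. Got2, the mitochondrial aspartate aminotransferase of the malate-aspartate shuttle, had 303 and 142 FPKM, or 47.0%. Ciapin1, a protein of cytosolic iron-sulfur cluster assembly, had 91.8 and 41.0 FPKM, or 44.6%.

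The other 4 metabolic genes past the limit were less than 2-fold lower on this scale. Mmaa, needed for the mitochondrial use of cobalamin, had 3.66 FPKM in the WT and 1.58 FPKM in the KO library. Its remaining level of 43.2% is below 50% and its log2 fold change of -0.85 is above -1 because 1 FPKM was added to both values. Ogfod1, a hydroxylase of a ribosomal protein, had 17.6 and 8.62 FPKM, or 49.0%. Coq9, needed for coenzyme Q synthesis, had 39.9 and 20.7 FPKM, or 51.8%. Phkb, the regulatory beta subunit of phosphorylase kinase in glycogen breakdown, had 17.5 and 9.94 FPKM, or 56.8%, the highest share in this group.

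Signalling and ubiquitin control held 12 members, of which 10 passed the limit and 5 were more than 2-fold lower, with a median of 48.2%, the highest of the 6 groups. Dcaf15, a substrate receptor of a cullin-RING ubiquitin ligase, had 61.8 FPKM in the WT and 18.0 FPKM in the KO library, or 29.2%. Cc2d1a, a scaffold of endosomal sorting and signalling, had 39.1 and 12.1 FPKM, or 30.9%. Prkaca, the catalytic alpha subunit of protein kinase A, had 201 and 73.1 FPKM, or 36.4%. Together with Usp38 these 3 kept 39.9% or less, while the following 6 kept between 46.3% and 89.8%. N4bp1, an inhibitor of ubiquitin ligases, had 25.8 and 11.9 FPKM, or 46.3%. Gipc1, an adaptor that ties receptors to a myosin motor, had 142 and 71.3 FPKM, or 50.2%. Rspry1, a protein with RING and SPRY domains, had 23.7 and 12.9 FPKM, or 54.7%. Cyld, a deubiquitinase that restrains NF-kappaB signalling, had 31.7 and 17.7 FPKM, or 55.8%. Csnk2a2 and Gab1 stood at the top of the group, so that its members covered nearly the whole range of the 51.

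The 6 members below the limit had values too low to show a difference. Hhip, a hedgehog antagonist, had 0.299 FPKM in the WT library and was listed at 0 in the KO library. Clgn, a chaperone of the testis, had 0.013 FPKM and was likewise listed at 0 in the KO library. Zfp423, a zinc finger transcription factor of fat precursors, had 0.039 and 0.017 FPKM. The other 3 had slightly higher values in the KO library than in the WT library. Inpp4b, a phosphoinositide phosphatase, had 0.044 and 0.098 FPKM. Tbc1d9, of a family of Rab regulators, had 0.072 and 0.13 FPKM, and Lpcat2, a lysophospholipid acyltransferase, had 0.155 and 0.191 FPKM. No fold change is given for these, and they are in none of the counts over 51 members.

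Along the chromosome the remaining level was lowest in the proximal part, highest in the middle and intermediate at the distal end, in segments that were drawn after the values had been seen. From Lsm6 to Orc6, 25 of 29 members past the limit were more than 2-fold lower, with a median of 35.4% of the WT level. From Itfg1 to Lpcat2, 2 of 10 were more than 2-fold lower, Lonp2 and N4bp1, with a median of 55.4%. From Nudt21 to Got2, 7 of 12 were more than 2-fold lower, with a median of 45.8%. Genes of the stretch outside the list showed a like order in the first 2 segments, with medians of 33.96% over 33 genes and 53.2% over 14, and in the third the median was 38.1% over 20 genes. The 4 members from Chd9 to Fto, whose starts are more than 1 Mb from those of the members on either side, formed the run with the highest median, 64.6%, and 0 of 4 were more than 2-fold lower. The list holds 51 of the 118 genes of the stretch past the limit, and the other 67 had a median log2 fold change of -1.33 with 63 of them lower.

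**Figure D2:**
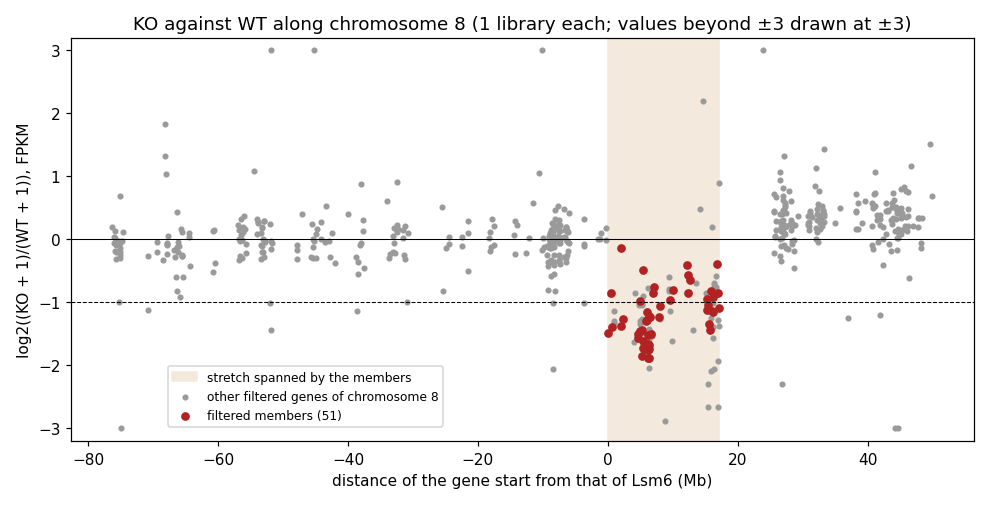
Log2((KO + 1)/(WT + 1)) of each gene of chromosome 8 with a mean of at least 1 FPKM, against the distance of its start from that of Lsm6 in Mb, with the 51 members in red, other genes in grey and the stretch shaded. The dashed line marks -1. The members run from -1.88 to -0.14, while genes before the stretch have a median of -0.030 and genes after it a median of 0.31.

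At the edge by Lsm6, neighbouring genes had very different values. Rbmxl1, an RNA-binding protein gene that ends at 79236108, had 52.4 FPKM in the WT and 51.9 FPKM in the KO library, and the gene before it, Tmem184c, had 21.7 and 23.3 FPKM. Prmt9, an arginine methyltransferase gene, had 9.59 and 9.66 FPKM. Slc10a7, a plus-strand gene for a membrane transporter, crosses the edge from 79235943 to 79460644 and overlaps the end of Lsm6, which is on the minus strand. It was singled out after its values were seen, 9.57 FPKM in the WT and 10.9 FPKM in the KO library. Lsm6 itself kept 35.4% of its WT level, so the first gene with a lower level overlapped one that was slightly higher. Beyond Got2 the nearest gene past the limit was Cdh11, a cadherin gene that starts at 103358726, with 0.692 FPKM in the WT and 30.7 FPKM in the KO library. It was followed by Tk2, a mitochondrial thymidine kinase gene with 6.29 and 5.29 FPKM, and Cklf, a chemokine-like gene with 11.2 and 15.6 FPKM. No gene with a known position passed the limit between Got2 and Cdh11, so the distal edge is not placed more closely. Inside the stretch, 4 genes past the limit were higher in the KO library and none of them is a member. Mmp2, a secreted gelatinase, had 40.3 and 56.6 FPKM, and Cx3cl1, a chemokine, had 23.0 and 26.5 FPKM. Sap18b, a paralog of a histone deacetylase cofactor, had 9.05 and 17.8 FPKM, and Ces1g, a carboxylesterase, had 0.292 and 4.92 FPKM.

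Some members start within 1 kb of each other on opposite strands, and 4 such head-to-head pairs had members on both sides. Vps35 and Orc6, whose starts lie 212 bp apart, kept 42.3% and 34.9%. Itfg1 and Phkb, 472 bp apart, kept 55.1% and 56.8%. Nudt21 and Ogfod1, 278 bp apart, kept 44.7% and 49.0%, and Ciapin1 and Coq9, 543 bp apart, kept 44.6% and 51.8%. The partners of a pair differed by 0.085 to 0.26 on the log2 scale. The median step between neighbouring members was 0.29, but the 4 pairs are themselves among those steps. Nothing is therefore read from this comparison. In each pair the GRCm39 starts cross, so that the genes overlap there and share exonic bases. The DNA around the starts of Nudt21 and Ogfod1 is printed because their windows, at chr8:94037040-94037289 (minus strand) and chr8:94036948-94037197 (plus strand) of GRCm38.p6, overlap and so show 1 region read from both sides, with capitals as above.
Nudt21: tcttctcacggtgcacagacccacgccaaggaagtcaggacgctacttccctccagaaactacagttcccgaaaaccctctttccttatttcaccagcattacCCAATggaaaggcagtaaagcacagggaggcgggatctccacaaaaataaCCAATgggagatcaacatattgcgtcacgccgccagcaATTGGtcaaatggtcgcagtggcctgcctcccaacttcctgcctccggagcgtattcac
Ogfod1: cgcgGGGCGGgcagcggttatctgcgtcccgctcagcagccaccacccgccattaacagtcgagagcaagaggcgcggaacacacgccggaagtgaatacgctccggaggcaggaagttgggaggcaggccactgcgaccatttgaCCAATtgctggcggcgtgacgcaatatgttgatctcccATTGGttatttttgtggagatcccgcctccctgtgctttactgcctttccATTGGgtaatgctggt
Both windows hold the same 3 CCAAT boxes, 2 of which lie in one orientation and 1 in the other. The GC box of the Ogfod1 window lies in the part that the Nudt21 window does not reach.

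Members with longer spans tended to keep more of their level. Spearman's rho between the annotated span of a gene and the share of the WT level that remained was 0.67 over the 51 members and 0.65 without Gab1. These are correlations across genes of the same 2 libraries, which are not independent replicates, and no p-value was computed. Within the proximal part from Lsm6 to Orc6 rho was 0.51 over 29 members, and from Itfg1 to Got2 it was 0.58 over 22. For the other 67 genes of the stretch it was 0.29, and over 10294 genes past the limit with an annotated span it was 0.20. The 25 members with the longest spans, from 30483 bp, kept a median of 49.1%, and the 26 shorter ones, up to 28314 bp, kept a median of 34.8%. The members that kept 60% or more, Gab1, Csnk2a2, Chd9, Rfx1, Aktip and Fto, are all among the longer ones. Of these, Fto spans 355118 bp, and Rfx1, at 30483 bp, is the shortest of the 25. The relation with the length of the transcript was weaker, with a rho of 0.51, and that with the WT level was -0.32.

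**Figure D3:**
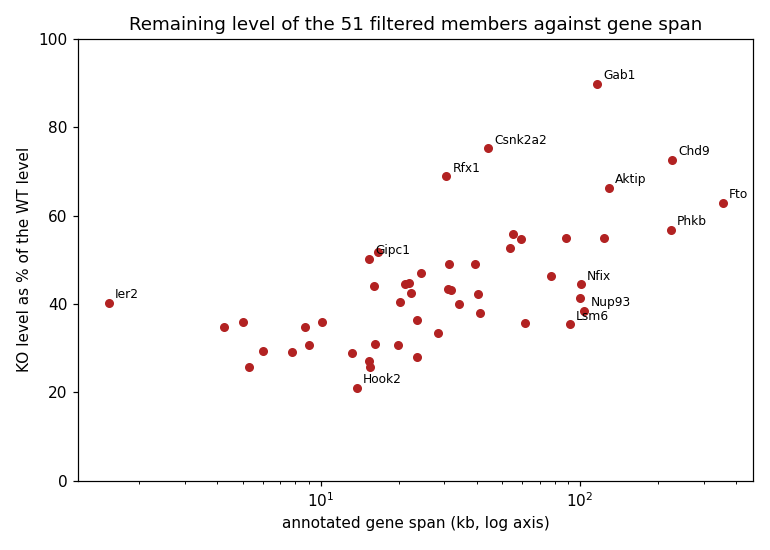
Share of the WT level that remained in the KO library, in percent, against the annotated span of the gene in kb on a log axis, for the 51 members past the limit. The points rise from left to right with wide scatter, from Ier2 (1524 bp, 40.2%) to Fto (355118 bp, 62.9%), and members of similar span can lie far apart, such as Gab1 (116219 bp, 89.8%) and Nup93 (103899 bp, 38.5%).

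Many members encode subunits of complexes or belong to small families, and 105 partner genes in 25 such complexes and families were listed to set beside them. Not one of these lies in the stretch, which is in part a matter of how the lists were drawn. The lists were drawn up with earlier results known and are not complete. For example, they leave out Hook2, a member that Aktip binds. Of the 97 partners past the limit, 0 were more than 2-fold lower and 0 more than 2-fold higher on the scale with 1 FPKM added. Over all 10542 genes past the limit, 3.43% were more than 2-fold lower and 299 genes more than 2-fold higher. Of the partners, 41 were lower by any amount, where 49.3% of all genes were. Smad9, a relative of Smad1 with 0.729 FPKM in the WT and 1.60 FPKM in the KO library, or 219.9%, stayed within the limit because of the added 1 FPKM. Their median log2 fold change was 0.027, with quartiles of -0.099 and 0.23. Of these 97, 0 had a fold change as low as that of the member they were listed with. This 0 depends on how the lists were drawn, since the unlisted Hook2 kept 21.1% beside 66.3% for Aktip. The partners named next were chosen after their values had been seen. In the retromer, where Vps35 kept 42.3%, Vps26a had 62.7 FPKM in the WT and 69.8 FPKM in the KO library. Vps29, which binds the other end of Vps35, had 104 and 118 FPKM. In the histone chaperone pair, Asf1a had 21.8 and 31.5 FPKM beside the 27.2% kept by Asf1b.

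In the larger complexes, 1 low subunit likewise stood among others nearer to their WT level. The 7 partners of Lsm6 in the Lsm rings kept between 92.2% and 129.6%, against 35.4% for Lsm6. In RNA polymerase II, 11 partners kept between 61.9% and 119% beside the 44.2% of Polr2c. The 9 partners of Cnot1 in the CCR4-NOT complex kept between 67.7% and 138%, and the 5 other subunits of the origin recognition complex between 66.0% and 120.1%. In the BBSome, 7 partners of Bbs2 kept between 98.0% and 183%. The differences were narrower in casein kinase 2, where Csnk2a2 kept 75.2%, Csnk2a1 94.3% and Csnk2b 94.0%. In phosphorylase kinase, Phkg2 kept 58.8% and Phkb 56.8%. Protein levels were not analysed here.

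**Figure D4:**
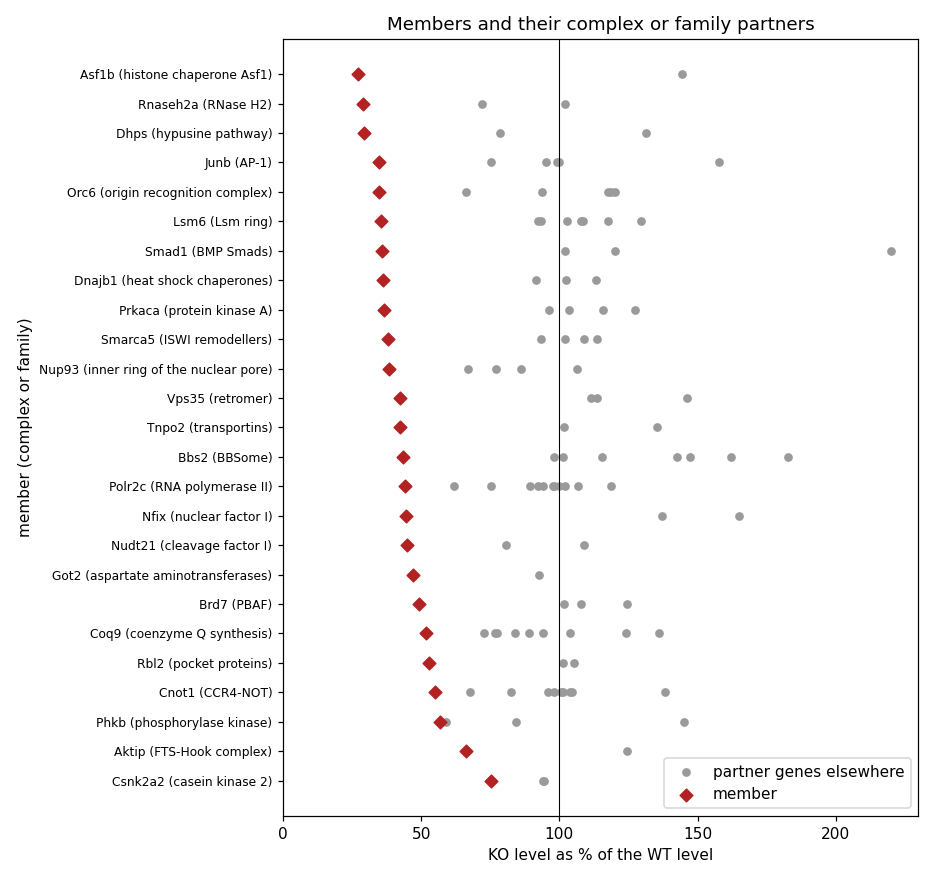
Share of the WT level that remained in the KO library, in percent, for 25 members (red diamonds, ordered by their value) and for the partner genes of each past the limit (grey points), with a line at 100%. The diamonds run from 27.2% for Asf1b to 75.2% for Csnk2a2, and each grey point lies to the right of the diamond in its line, between 58.8% and 219.9%.

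Some values could be shared with other genes by the counting, whose use of strand is not given in the sources used here. Besides Polr2c, exonic overlap with the opposite strand covered 44.4% of Rbl2 and 35.1% of Aktip, which overlap each other, 38.9% of Nacc1, 31.5% of Gcdh, 30.2% of Usp38 and 28.4% of Brd7. Reads of such genes and their partners cannot be told apart without strand. The 33 members past the limit with less than 10% of such overlap had a median log2 fold change of -1.22, and 20 of them were more than 2-fold lower. Annotated pseudogene copies named after the member exist for Prdx2, Smarca5, Got2 and Prkaca on other chromosomes. Their values are uncertain to the extent that reads were split between copies. Copies annotated under other names were not searched for, so the other members may have some too.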

How the data were processed

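Messenger RNA of WT and KO C2C12 cells was sequenced, 1 library each. For each library the deposited table lists gene symbols with a single value, read here as FPKM although the authors name no unit in it. The methods describe trimming, STAR alignment to GRCm39 and RSEM quantification, whereas the submitters' processing notes list Trim Galore 0.6.6, STAR 2.7.9a, RSEM 1.3.3 and a GRCm38 build. The library kits named in the labels and in the methods also differ. The number of reads is unknown, so no counting interval was given.

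Among 21853 rows there were 24 repeats of a symbol, of which the higher was used. Fold changes were log2((KO + 1)/(WT + 1)) for genes whose mean reached 1 FPKM, and a change counted beyond 2-fold. No test was possible with 1 library per group. The code for the calls was checked on simulated data with large planted changes, which does not test this contrast. Gene positions, spans and exons came from GENCODE vM39, with older symbols matched through RefSeq synonyms, for 10312 of the 10542 genes. Promoter windows came from RefSeq (GRCm38.p6). Rules for names covered the 57 members, the 3 genes past the limit nearest to each edge, genes inside the stretch with a positive log2 fold change, partners beyond 2-fold and cell type markers. Members with a log2 fold change above -0.5 were those said to have kept most of their level. The members, the functional groups, the partner lists and these rules were chosen with earlier results of these data known. Alternatives were pseudocounts of 0.1 and 5, a filter at 5 FPKM in place of 1, all genes unfiltered, median of ratios scaling and centring on genes off chromosome 8. A fold change without pseudocount was chosen after seeing the data. Computation was done in Python 3.11.15 with numpy 2.4.6, pandas 2.3.3 and scipy 1.17.1.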

Additional observations from a re-analysis of the deposited data

How the results depend on the processing

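The 34 members more than 2-fold lower became 37 with a pseudocount of 0.1, which added Brd7, Mmaa and Ogfod1, and 32 with a pseudocount of 5, which lost Bbs2 and N4bp1. Without a pseudocount they were 37, and under the other alternatives 34. The median log2 fold change of the members ran from -1.24 to -1.09, and 51 of 51 members past the limit stayed lower under each setting that kept this limit. Over all genes, the 362 more than 2-fold lower became 176 with a pseudocount of 5 and 221 where the filter was a mean of 5 FPKM. Without a filter 54 of 57 members were lower. With a pseudocount of 5 the log2 fold changes of Elmod2, Gcdh, Hook2, Man2b1 and Mmaa moved to -1.04, -1.22, -1.17, -1.10 and -0.40. Gab1, Csnk2a2 and Chd9 stayed above -0.5 under each setting, whereas Rfx1 was at -0.53 with a pseudocount of 0.1, at -0.54 without one and at -0.50 under median of ratios scaling, and with a pseudocount of 5 Aktip, at -0.46, and Mmaa were above it too. Hook2 was below -2 with a pseudocount of 0.1, at -2.20, and without one, at -2.25. No paired analysis was possible because each group has 1 library, and for the same reason no replicate could be left out. Depth is unknown, so the error of low values such as those of Gab1, Mmaa and the 6 members below the limit could not be given.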
